A study of Mus musculus with 6 samples.

Results

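Connexins are membrane proteins that form gap junctions. Connexin subunits assemble into a ring called a hemichannel, and hemichannels of neighbouring cells dock to form a channel through which ions and small metabolites pass from cell to cell. Each cell type of the nervous system uses its own members of the family: Gjd2 (Cx36) couples neurons at electrical synapses, Gja1 (Cx43) and Gjb6 (Cx30) couple astrocytes, Gjb1 (Cx32) and Gjc3 (Cx29) belong to myelinating glia, and Gja4 (Cx37), Gja5 (Cx40) and Gjc1 (Cx45) are best known from the vessel wall and the heart. The genes described here are the 9 connexins other than Gja1 that were listed by name, Gja3, Gja4, Gja5, Gjb1, Gjb2, Gjb6, Gjc1, Gjc3 and Gjd2. A probe belonged to a member when its gene name in the scanner files equalled the symbol, which gave 11 probes, 3 of them for Gja5 and 1 for each other member, out of 55681 probes with 34797 different gene names.

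RNA came from the cerebellum of C57BL/6J pups at postnatal day 1, whose mothers ate an AIN-93G amino acid diet with folic acid (FA) at 2 mg/kg (control) or 20 mg/kg from a week before mating through gestation. For each sex there was 1 array at 2 mg and there were 2 arrays at 20 mg, and each of the 6 arrays held RNA pooled from 3 pups of 3 different dams, so that the pool is the replicate and the spread between pools was measured at 20 mg only. The 20 mg RNA was extracted again from a further batch of pups for the repeat arrays. One field of the labels calls the tissue whole brain, whereas the titles and the methods say cerebellum.

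The markers of the tissue bear on this. Of 10 cerebellar genes (Atoh1, Zic1, En2, Pcp2 and others), all 10 were well above background on 4 arrays, 9 on male 20 mg replicate 2 and 6 on a dim array that is labelled female 20 mg replicate 2. Of 8 forebrain genes, all 8 were also well above background on 4 arrays, 4 on male 20 mg replicate 2 and 1 on the dim array. The 5 choroid plexus markers, led by Ttr (transthyretin), summed to a normalized signal of 5730 on the female 2 mg array and 26700 on the male one, against 29700 to 79800 at 20 mg, and 4 or 5 of them were well above background on each array. The part of these tissues in the connexin values was not tested. "Well above background" is the flag that the image software sets for a spot whose brightness clears its local background by a set margin.

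One array, labelled female 20 mg replicate 2 and named here the dim female-labelled array, stood apart, and its sex label is in doubt. On it, 23.3% of all probes were well above background, against 51.1% to 71.9% on the other 5, and its median processed signal was 5.14, against 39.0 to 162. Xist is transcribed from the inactive X chromosome of females. Its processed signals were 1830 and 7930 on the other female arrays and 8.18 on this array, where it was not well above background. Normalized to log2, Xist was at 7.27 here, against 9.67 and 10.84 on the other female arrays and 3.32 on the male arrays. Eif2s3y, a gene of the Y chromosome, was well above background on this array, on female 20 mg replicate 1 and on the male arrays. Its processed signals were 48.6 on this array, 5.98 and 46.5 on the other female arrays and 886 to 9240 on the male arrays. Its normalized log2 signal was 10.12 on this array, 3.32 and 4.04 on the other female arrays and 10.62 to 11.99 on the male arrays. The processed signals of Eif2s3y were thus alike on this array and on female 20 mg replicate 1. The median processed signals of these arrays over all probes were 5.14 and 162. Ddx3y, also of the Y chromosome, was at 7.71 and not well above background on this array. It was at 3.32 on both other female arrays and at 9.41 to 10.46 on the male arrays. Xist and Ddx3y lay under 8.82, the lowest normalized value called well above background on the dim female-labelled array. Eif2s3y, at 10.12, lay above it. Every female result below is therefore given with and without the dim female-labelled array. Both 2 mg arrays and female 20 mg replicate 1 lay on slide 1. Slide 2, scanned on an earlier day than the others, held the dim female-labelled array together with male 20 mg replicate 1, and slide 3 held male 20 mg replicate 2.

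The probes are 60-base sequences of the transcripts. Their opening 30 bases, 5′ to 3′ in lower case with no part singled out, are shown for the members whose values the results turn on, the 3 Gja5 probes because they gave different answers, and the chromosome 14 probes because those genes lie side by side. Positions are those of the whole probe in mm9 as the array design lists them.
Gja5 probe I, chr3:96836339-96836395, plus strand: caaataacagtgggcagttgaacagcagcc
Gja5 probe II, chr3:96857349-96857408, plus strand: ccgacactggcactaagactctctgttctg
Gja5 probe III, chr3:96881280-96881339, plus strand: tgtgtgctttatctgtaaatattgattgca
Gja3, chr14:57654750-57654809, minus strand: aaaccacccagtcaaacactgcaatggcca
Gjb2, chr14:57717629-57717688, minus strand: caagttgaaccattaccactatgccttatg
Gjb6, chr14:57742226-57742285, minus strand: ttcattggacaatatacattgccgattgct
Gjb1, chrX:98580902-98580961, plus strand: tccccagttcccaaggcccctctctctgca
Gjc1, chr11:102661010-102661069, minus strand: gttgtgtcttccagatccagagaagaactg
Gjd2, chr2:113835432-113835491, minus strand: ggcaagagtagcattgagataatatgtttt

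The remaining probes lie at chr4:126988848-126988907 (Gja4) and chr5:138395037-138395096 (Gjc3). Gja3, Gjb2 and Gjb6 follow each other on chromosome 14 with 0 protein-coding genes between neighbours in the RefSeq annotation, and their probes span 87536 bases. The GC content of the probes ran from 35.0% (Gjc1, Gjd2) to 55.0% (Gja3, Gja4), where the median of all probes was 43.3%. No other probe on the array shared a run of 20 bases with any of the 11.

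Levels are given as normalized log2 signals, in which all arrays were brought to a common distribution and values under 10 on the linear scale (3.32 on the log2 scale) were raised to it. A gene with several probes is represented by the probe of highest mean processed signal, which for Gja5 is probe III. By this probe, 4 of the 9 connexins were well above background on all 6 arrays (Gjb1, Gjb2, Gjb6 and Gjd2), and 7 were so on all of the other 5 arrays when the dim female-labelled array was left out. Gja3 and Gja5 were also not well above background on male 20 mg replicate 1. All 9 were well above background on both 2 mg arrays, where the female and male values of a member differed by at most 0.37 on the log2 scale.

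**Figure D1:**
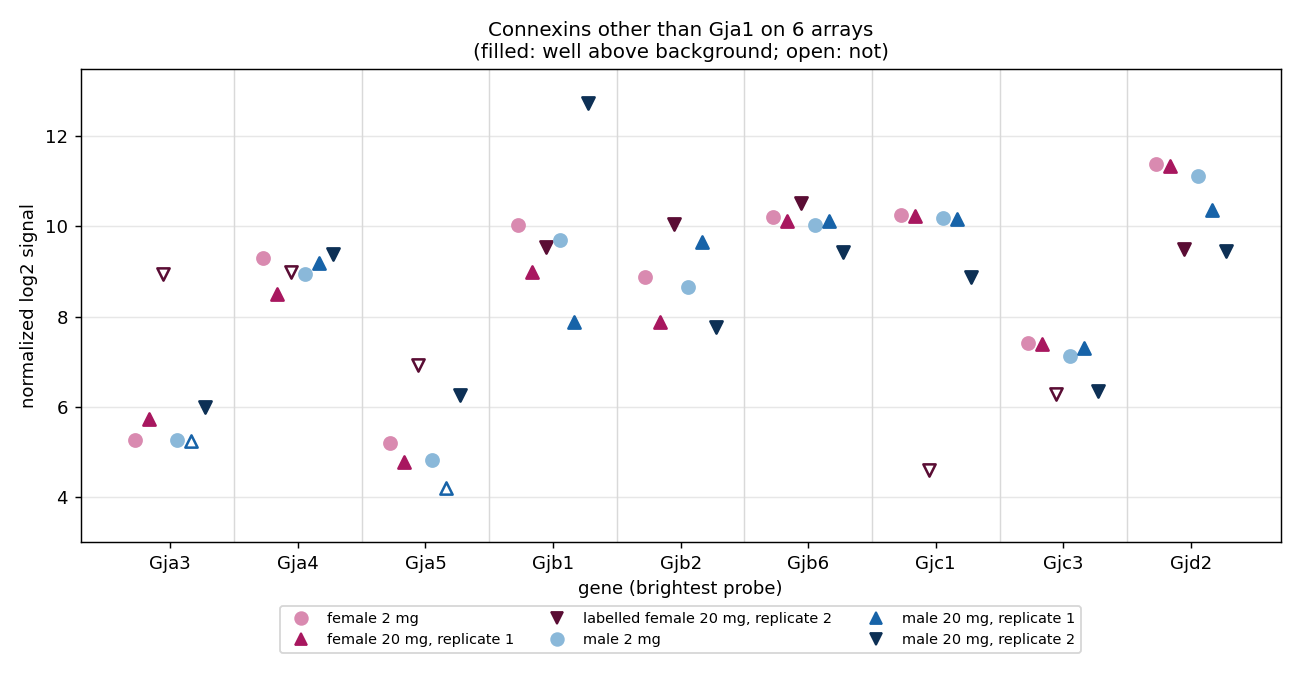
Normalized log2 signal (vertical axis) of the brightest probe of each connexin (horizontal axis) on the 6 arrays; filled symbols were well above background and open ones were not. On the dim female-labelled array (dark red, pointing down) Gjc1 lies at 4.60 and Gja3 at 8.95, away from their values on the other 5 arrays, and Gjb1 lies at 12.74 on male 20 mg replicate 2 (dark blue, pointing down).

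Before normalization the difference between arrays is plain. The processed signal of Gjd2 was 5840 on the female 2 mg array, 10900 on female 20 mg replicate 1, 29.9 on the dim female-labelled array, 5630 on the male 2 mg array and 2030 and 441 on male 20 mg replicates 1 and 2. On the dim female-labelled array, the members lay between 4.79 (Gjc1) and 67.0 (Gjb6). The lowest signal that the software still called well above background there was 18.5, which normalization placed at 8.82 on the log2 scale, whereas the lowest such value on the other arrays lay between 3.36 and 5.01. A normalized value under 8.82 on this array was therefore not a measured level, and Gja5, Gjc1 and Gjc3 fell under it.

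**Figure D2:**
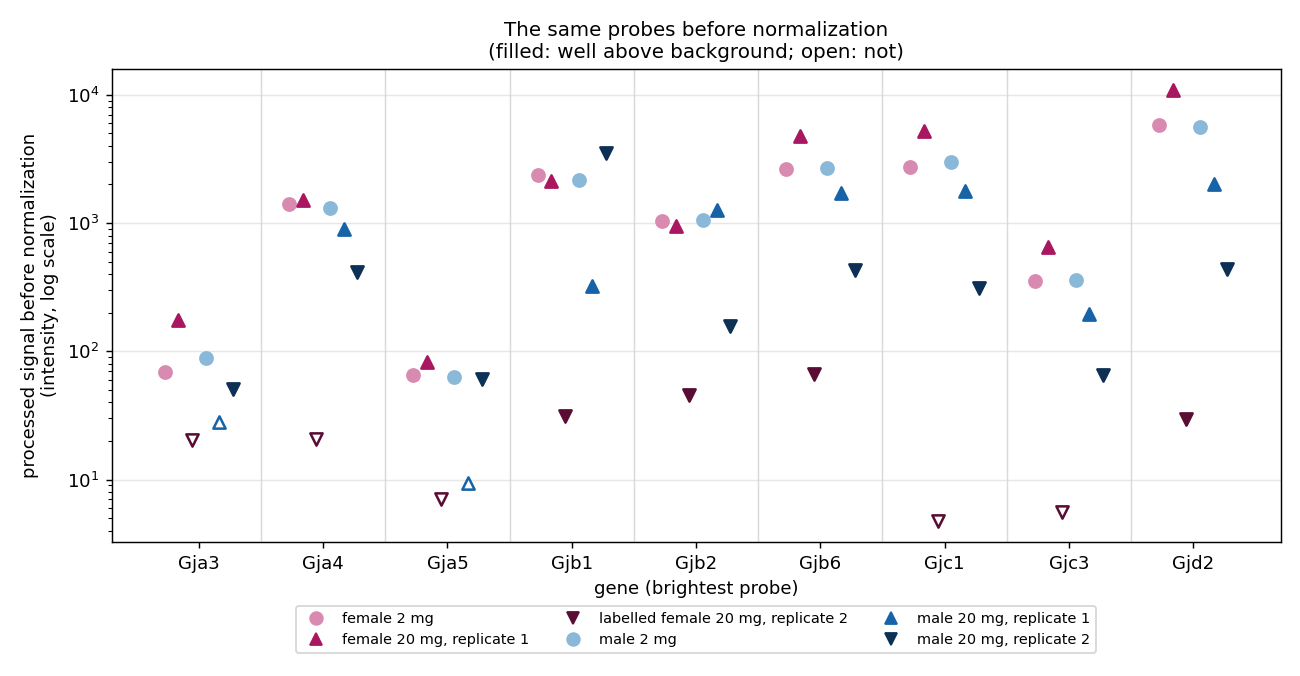
Processed signal before normalization (vertical axis, intensity on a log scale) of the same probes on the 6 arrays; filled symbols were well above background and open ones were not. Every member is lowest on the dim female-labelled array, at 4.79 to 67.0.

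The question put to these genes is whether their RNA differs between pups of 20 mg and of 2 mg dams. In the fold rule, modelled on the study's methods, a probe counts when it passes a filter on variation over the arrays and its mean at 20 mg lies at least 2.5-fold from the 2 mg array of the same sex. In males 0 of the 9 connexins met it in either direction, where 7.92% of the 15247 filtered probes were lower and 5.17% higher at 20 mg. In females, Gjc1 met it as lower (37.6% of the filtered probes were lower) and Gja3 as higher (31.6% were higher), and both did so through the dim female-labelled array, on which neither was well above background. Probe I of Gja5, not the brightest of its gene, met it as higher on the same array. Without that array 0 connexins met the rule in females. Of the 9 brightest probes, 3 (Gja3, Gjb1 and Gjc1) passed the variation filter. The shares above are over filtered probes, whereas the 9 members were counted whether or not they passed it. Of all 55681 probes, filtered or not, 1207 met the rule as lower and 788 as higher in males. In females 5736 met it as lower and 4815 as higher.

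The linear model fit of limma over 37211 probes, which tests each difference against the spread between pools, called 0 connexin probes in males, in females, over both sexes and for the interaction of dose and sex. The share of all probes called was 0% in each of the 4 contrasts as well, and unadjusted p-values under 0.05 were reached by 74, 161, 145 and 51 probes. The smallest unadjusted p of any connexin probe was 0.124, for probe I of Gja5 in females, and every adjusted p of the 11 probes was 1 in limma. With 2 residual degrees of freedom and a prior SD of 1.32 on the log2 scale, the standard errors of the members' dose differences within a sex ran from 1.23 to 2.17. Each probe has 1 spread for both sexes, so its male SE equals its female SE and carries the dim female-labelled array as well.

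**Figure D3:**
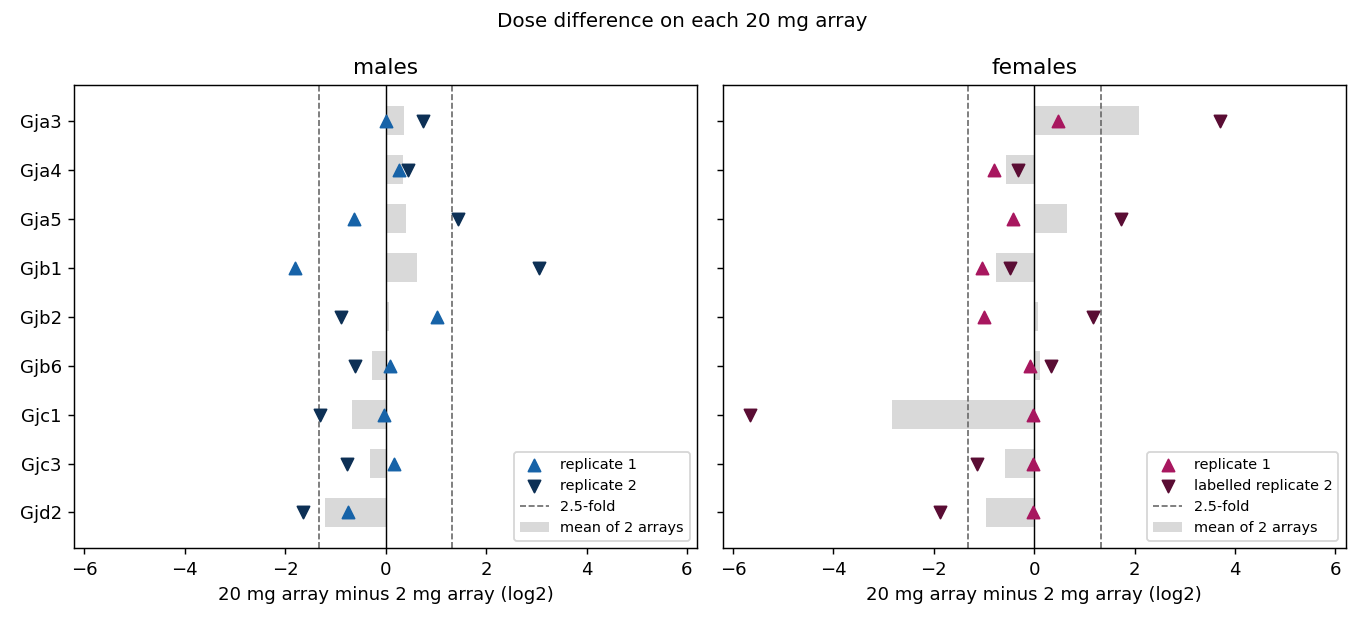
Difference of each 20 mg array from the 2 mg array of its sex (horizontal axis, log2) for the 9 connexins, males on the left and females on the right; bars are the mean of the 2 arrays, triangles the single arrays and dashed lines 2.5-fold. In 7 of 9 members in each sex, the gap between the 2 arrays at 20 mg is larger than the mean dose difference.

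Gjd2, the connexin of electrical synapses, had the largest mean difference in males. Its normalized log2 signal was 11.11 on the male 2 mg array and 10.35 and 9.46 on the 20 mg arrays, and in females it was 11.37 at 2 mg, 11.34 on replicate 1 and 9.50 on the array labelled replicate 2. All 4 arrays at 20 mg lay under the 2 mg array of their sex, although for female replicate 1 the difference was -0.03. The mean at 20 mg was 9.91 ± 0.63 (SD, n = 2) in males and 10.42 ± 1.30 (SD, n = 2) in females. The dose differences were -1.20 in males and -0.95 in females, each with an SE of 1.23 and an adjusted p = 1 by limma. Over both sexes the difference was -1.08 (SE 0.87, unadjusted p = 0.229 by limma). Within slide 1 the female difference was -0.03, and among the arrays of the later scan day the male difference was -1.65. On the dim female-labelled array the cerebellar markers went both ways: Neurod1, a transcription factor of granule neurons, was lowest of the 6 arrays (4.67, not well above background), and Zic2 (11.45) and Calb1 (10.64) were highest. The summed normalized signal of the 10 cerebellar markers was 55300 and 51800 at 2 mg and 31600 to 59500 at 20 mg. Their part in the Gjd2 values was not tested.

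Gjb6 and Gjb2 encode Cx30 and Cx26, found in astrocytes and in the leptomeninges and known for their part in hearing. Of the 4 members measured on all 6 arrays Gjb6 varied least, over a range of 1.10 on the log2 scale: it was at 10.20, 10.11 and 10.53 on the female arrays (2 mg, 20 mg replicate 1 and the array labelled replicate 2) and 10.03, 10.11 and 9.43 on the male arrays. The 20 mg arrays lay on both sides of the 2 mg array in each sex, with mean differences of 0.12 in females and -0.27 in males (SE 1.26, adjusted p = 1 in both by limma). On female replicate 1 alone the difference was -0.09. Gjb2, whose probe lies 24597 bases from that of Gjb6, moved more between pools. It was at 8.88, 7.88 and 10.05 on the female arrays and at 8.65, 9.66 and 7.76 on the male arrays, in the same order.

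In each sex the Gjb2 signal was about 1 unit above the 2 mg array on one 20 mg array and about as far under it on the other, so that the mean differences were 0.08 in females and 0.07 in males (SE 1.66, adjusted p = 1 by limma). The high arrays were those of slide 2, where Gjb2 was 1.16 and 1.02 above the 2 mg array of its sex. On the arrays of the later scan day, the difference of Gjb2 was -1.00 in females and -0.88 in males. The differences of Gjb2 from the 2 mg array thus had opposite signs on the 2 scan days in both sexes. Both 2 mg arrays were of the later scan day, so the slide 2 differences mix dose with slide and scan day. One of the slide 2 arrays is the dim female-labelled array. Of 6 meningeal markers (Col1a1, Dcn, Ptgds and others), all 6 were well above background on 5 arrays and 5 on the dim female-labelled array, and their summed signal was 77800 and 67400 at 2 mg, 77200 and 119000 on the slide 2 arrays, and 38700 and 118000 on female 20 mg replicate 1 and male 20 mg replicate 2. Of 6 astrocyte and radial glia markers, all 6 were well above background on 5 arrays and 4 on the dim female-labelled array, with sums of 111000 and 126000 at 2 mg and 67700 to 137000 at 20 mg. Their part was not tested. In bulk RNA, fewer cells of a type and less RNA per cell cannot be told apart.

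Gja3 (Cx46) is the third member of the chromosome 14 group and is best known as a lens fibre connexin. It was at 5.25, 5.73 and 8.95 on the female arrays and at 5.25, 5.25 and 6.00 on the male arrays. On the 5 arrays other than the one labelled female 20 mg replicate 2, its values spanned 0.75 on the log2 scale, and the value of 8.95 came from a processed signal of 20.3 that was not well above background. This spot carried the female result: the mean at 20 mg was 7.34 ± 2.28 (SD, n = 2) against 5.25 at 2 mg, 4.25-fold higher (difference 2.09, SE 2.17, adjusted p = 1 by limma), whereas on slide 1 the difference was 0.47 and without that array it was 0.56. In males the difference was 0.37. Of 5 lens markers, Bfsp1, a lens intermediate filament gene, was well above background on all 6 arrays, Cryaa on 5, Cryba1 on 3, Crybb2 on 1 and Mip on 0, and their summed signal was 268 and 303 at 2 mg and 211 to 975 at 20 mg. The sum was highest on the dim female-labelled array, where Bfsp1 was at 9.85 against 5.44 to 7.93 elsewhere, while Cryaa was at the floor of 3.32 against 5.91 to 6.79 and Cryba1 at 4.29 against 4.42 to 5.58. The part of these markers in the Gja3 values was not tested.

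Gjb1 (Cx32) and Gjc3 (Cx29) are connexins of myelinating glia. The female arrays gave Gjb1 at 10.04, 8.99 and 9.55, and the male arrays at 9.69, 7.89 and 12.74. The male pools at 20 mg lay on opposite sides of the 2 mg array and 4.85 apart on the log2 scale, the widest gap between pools of any member in males, with processed signals of 324 and 3490. The mean at 20 mg was 10.31 ± 3.43 (SD, n = 2), a difference of 0.62 (SE 1.59, adjusted p = 1 by limma), which became 3.09 without replicate 1 and -1.85 without replicate 2. In females both 20 mg arrays were lower (differences of -1.05 and -0.48), and the mean difference of -0.76 (adjusted p = 1 by limma) lay within the standard error.

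Gjc3 was at 7.41, 7.39 and 6.28 on the female arrays and at 7.13, 7.29 and 6.36 on the male arrays, and the value of 6.28 was not well above background. Replicate 1 stayed within 0.16 of the 2 mg array in both sexes and replicate 2 was lower in both (differences of -1.13 in females and -0.78 in males), so that the mean differences of -0.57 and -0.31 were smaller than their standard error of 2.14. The female difference was -1.61 when the floor was set before normalization and -1.30 in the authors' deposited value table. All 9 oligodendrocyte lineage markers (Olig1, Sox10, Mbp, Mog and others) were well above background on 5 arrays and 5 of them on the dim female-labelled array. Their summed signal was 17000 and 13200 at 2 mg and 10800 to 20300 at 20 mg, with 11500 on male 20 mg replicate 2, where Gjb1 was highest. On that array Mog, a late myelin protein, was at 10.19 against 6.52 to 7.78 elsewhere, and Sox10, a regulator of the lineage, at 10.82 against 9.32 to 10.56, while Pdgfra (10.15) and Mbp (10.72) were lower than on the other 5 arrays. The part of these genes in the Gjb1 and Gjc3 values was not tested.

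Gjc1 (Cx45) was at 10.25, 10.23 and 4.60 on the female arrays and at 10.19, 10.15 and 8.88 on the male arrays. The 4 arrays at 2 mg and at 20 mg replicate 1 lay within 0.10 of each other on the log2 scale, male 20 mg replicate 2 differed from the 2 mg array by -1.31, and on the dim female-labelled array the spot, with a processed signal of 4.79, was not well above background. The female mean at 20 mg was 7.42 ± 3.99 (SD, n = 2) against 10.25 at 2 mg, 7.14-fold lower. This difference of -2.84 (SE 1.85) did not pass in limma (unadjusted p = 0.14, adjusted p = 1). Without that array the female difference was -0.02. The male mean at 20 mg was 9.52 ± 0.90 (SD, n = 2), a difference of -0.67 (SE 1.85, adjusted p = 1 by limma), which was -0.03 without replicate 2.

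Gja4 (Cx37), an endothelial connexin, was at 9.30, 8.50 and 8.98 on the female arrays and at 8.94, 9.20 and 9.38 on the male arrays. Both female arrays at 20 mg lay under the 2 mg array (differences of -0.80 and -0.32) and both male arrays above it (0.26 and 0.44), and the third female value was not well above background. The mean differences were -0.56 in females and 0.35 in males (SE 1.49, adjusted p = 1 in both by limma), and the test of the difference between the sexes gave -0.90 (SE 2.11, unadjusted p = 0.673, adjusted p = 1 by limma).

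Gja5 (Cx40), of arterial endothelium and of the atria, is the member whose answer depended on the probe. Probe III, the brightest, is listed for an Ensembl transcript and lies 23931 bases beyond probe II. It was at 5.19, 4.77 and 6.92 on the female arrays and at 4.82, 4.19 and 6.26 on the male arrays. In both sexes replicate 1 was lower than the 2 mg array and replicate 2 higher, and the values of 6.92 and 4.19 were not well above background. The mean differences were 0.66 in females and 0.41 in males (SE 1.87, adjusted p = 1 by limma), and on replicate 1 alone they were -0.42 and -0.62. Their sign turned when the floor was set before normalization (-0.77 and -0.12) and in the authors' deposited value table (-0.60 and -0.28), so this probe gave no direction.

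Probe II, in the RefSeq transcript of the gene, was at 4.99, 4.32 and 3.32 on the female arrays and at 5.12, 5.80 and 4.50 on the male arrays. Both female arrays at 20 mg were lower, the second of them at the floor, and the male arrays lay on both sides, with mean differences of -1.17 and 0.03 (SE 1.44, adjusted p = 1 by limma) and, on female replicate 1 alone, -0.67. Probe I, which the files list at the start of the same transcript with 57 bases aligned, was at 3.32, 3.70 and 8.24 on the female arrays and at 3.69, 4.17 and 4.93 on the male arrays. It was well above background on 2 arrays alone, female 20 mg replicate 1 and male 20 mg replicate 2.

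Probe I was not well above background at 2 mg in either sex, so no fold is given for it. In females the value of 8.24 came from a processed signal of 13.0 on the dim female-labelled array that was not well above background, and replicate 1, at 3.70, was under the lowest value called well above background on the female 2 mg array, 4.06. In males replicate 1 was not well above background and replicate 2, at 4.93, was. The fitted differences were 2.65 in females and 0.86 in males (SE 1.65, adjusted p = 1 in both by limma). In females the 3 probes of this gene differed in sign, and none of them was well above background on the dim female-labelled array.

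**Figure D4:**
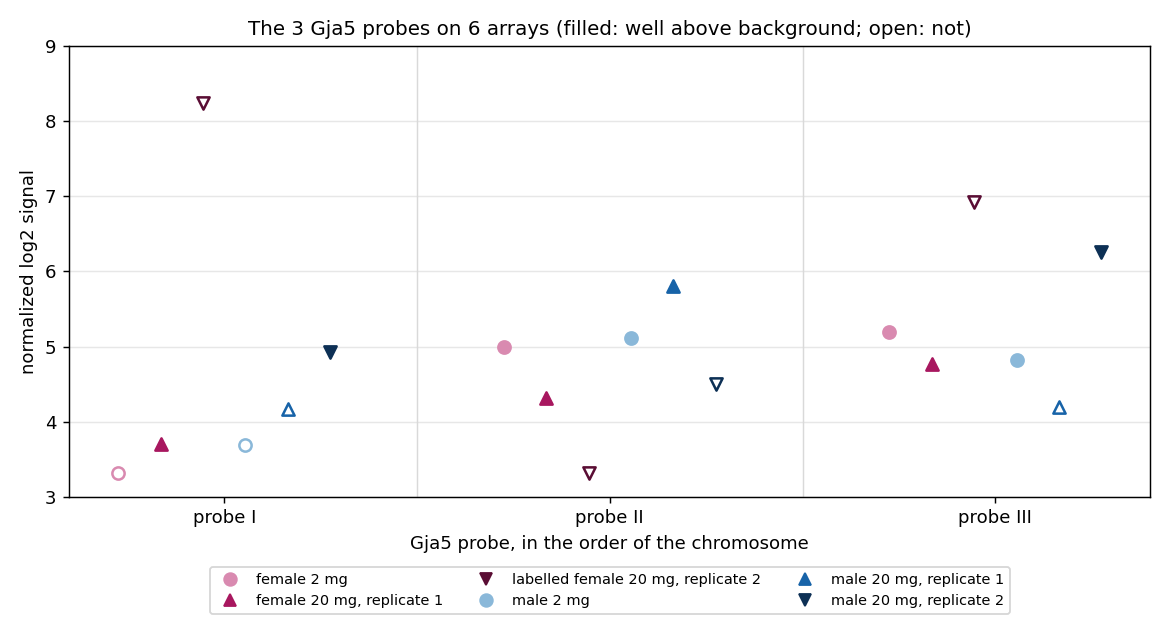
Normalized log2 signal (vertical axis) of the 3 Gja5 probes, in their order on chromosome 3, on the 6 arrays; filled symbols were well above background and open ones were not. On the dim female-labelled array (dark red, pointing down) the probes lie at 8.24, 3.32 and 6.92, all open, while the other 5 arrays lie between 3.32 and 6.26.

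Markers of vessel cells were measured on the same arrays. All 6 endothelial markers (Pecam1, Cdh5, Cldn5, Tek, Kdr and Flt1) were well above background on 5 arrays and 2 on the dim female-labelled array, and their summed signal was 11100 and 10700 at 2 mg and 2940 (the dim female-labelled array) to 24900 (male 20 mg replicate 2) at 20 mg. Of the 6 mural cell markers, 5 were well above background on 5 arrays and 0 on the dim female-labelled array, Myh11 was so on none, and the sums were 2280 and 2090 at 2 mg and 1220 to 3380 at 20 mg. On the dim female-labelled array, where Gjc1 was at 4.60, markers of both lists went both ways: Flt1 (3.32) and Rgs5 (3.65) were lower than on the other 5 arrays, Pecam1 (7.58) and Kcnj8 (7.28) were higher, and none of these 4 was well above background there. The part of these markers in the Gja4, Gja5 and Gjc1 values was not tested.

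Over the 9 connexins by their brightest probes, 4 were lower at 20 mg in males and 5 in females, with median differences of 0.07 and -0.56 against -0.04 and -0.21 over all probes fitted. The female count and both female medians include the dim female-labelled array. On female 20 mg replicate 1 alone, which shares its slide with the 2 mg array, the median over the 9 members was -0.09. There every member but Gja3 (0.47) was lower than at 2 mg, with differences of -0.02, -0.02 and -0.03 for Gjc1, Gjc3 and Gjd2. The 3 arrays of slide 1 lay within 0.5 of each other on the log2 scale for 6 of the 9 members and within 1.05 for all 9.

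The other members of the channel families give the setting. Of 14 further connexins and pannexins, 7 were well above background on no array, among them Gja6, Gjb5 and Panx3. In males 0 of the 14 met the fold rule. In females Gja1 met it as lower. Gja1 was at 8.91, 9.05 and 3.52 on the female arrays and at 8.74, 7.24 and 8.27 on the male arrays.

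As with Gjc1, the low female value of Gja1 came from the dim female-labelled array, where the spot was not well above background, and on replicate 1 it was 0.14 above the 2 mg array. Of 10 proteins that anchor or regulate gap junctions (Tjp1, Ctnnb1, Cdh2 and others), 0 met the rule in males and 4 in females. These 10 were counted whether or not they passed the variation filter. In females 37.6% of the 15247 filtered probes met the rule as lower and 31.6% as higher, which is 5736 and 4815 of all 55681 probes. Cnst (consortin), Nov and Mllt4 were lower (differences of -2.99, -2.28 and -1.43 on the log2 scale), and Cav1 (caveolin 1) was higher (2.34). On replicate 1 alone these 4 differences were 0.11, -0.57, -0.51 and 0.37. limma called 0 genes of either list.

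For the 4 connexins measured on all 6 arrays, the genes whose normalized values ran most nearly parallel were sought among 12408 probes well above background on all arrays. The likeness, given as Pearson r, is a description over 6 arrays that share slides and one normalization. Because each gene is among the highest of 12408 probes over 6 values, a high r can come from the search itself. For Gjb1 they were Ppara (r = 0.9994), Slc28a1 (0.9982) and Igf1 (0.9977). For Gjb2 they were Mrpl34 (0.9972), 5730528L13Rik (0.9942) and Slc25a37 (0.9931). For Gjb6 they were Slc26a11 (0.9985), A230055C15 (0.9975) and Zfp60 (0.9949), and for Gjd2 Sash1 (0.9948), B020031M17Rik (0.993) and Fam174a (0.992). No gene appeared under more than 1 connexin, and no connexin was among the 3 of another.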

How the data were processed

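The scanner files deposited by the authors, made with Agilent Feature Extraction 10.7.3.1 per the labels, hold for 62976 spots per array a processed intensity from which background was already subtracted and the flag for spots well above background. The authors' deposited value table holds log2 values, which per the methods were quantile normalized over the arrays in BRB-ArrayTools with a floor of 10. It served as an alternative. Groups follow the sex and dose that the labels give, and 0 columns of other samples were used. The members, the gene lists and the comparisons were chosen with earlier results of these data known.

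Control spots and outlier spots were left out, processed signals were averaged per probe (55681 probes), put on the log2 scale, quantile normalized (limma 3.58.1, R 4.3.3) and set to 10 where they were smaller. The filter on variation compared each probe's variance with the median variance (chi-square, p at or under 0.05, at most 50% missing) and kept 15247 probes. The fold rule needs 2.5-fold between the mean of the 20 mg arrays and the 2 mg array. limma was fitted with 4 groups of sex and dose and a trend, over the 37211 probes that at least 2 arrays measured well above background, with Benjamini-Hochberg adjustment. The lone 2 mg array of each sex was taken to vary like the 20 mg arrays. P-values rest on 1 spread per probe, taken between the 20 mg pools within each sex, joined over both sexes and drawn toward a shared spread. These pools also differ in slide and scan day. The SE of a probe is therefore the same in males and females, and the male SE carries the dim female-labelled array. For Gjc1 the pool SDs were 0.90 in males and 3.99 in females, and the SE was 1.85 in both. For Gja4 the pool SDs were 0.13 in males and 0.34 in females, against an SE of 1.49. Scripts were tested on simulated arrays with less noise than these and changes far over 2.5-fold. That checks the code and not the power to find a change here. All 9 members were named. Of the other lists, genes were named where they met a rule or stood beside a member's result. All 9 RefSeq accessions of the member probes matched the RefSeq table (GRCm38.p6) under the same symbol. It served for names and gene order only. Some genes of these lists are not reported here.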

Additional observations from a re-analysis of the deposited data

Results flagged for a closer look

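Gja4 moved in opposite directions by label: both arrays labelled female at 20 mg lay under the female 2 mg array and both male arrays above the male one. On the dim female-labelled array, whose sex label is in doubt, Gja4 was not well above background. So 1 measured female array at 20 mg remains, with a difference of -0.80. The female minus male dose difference was -0.90 on the log2 scale, and limma's test of it did not pass (unadjusted p = 0.673).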

How the results depend on the processing

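The number of arrays and the low signal of the dim female-labelled array limit every value here. The count of 2 connexins past 2.5-fold in females became 0 under the 75th percentile shift, under which Gja3 and Gjc1 still differed by 2.19 and -1.71 but did not pass the variation filter, and 0 when both 20 mg arrays had to be past 2.5-fold on their own, a rule chosen after seeing the data. It became 3 with the floor before normalization, where Gjc3 in females moved from -0.57 to -1.61. Leaving out 1 array at 20 mg gave 0 to 2 connexins in females (0 without the dim female-labelled array), 0 to 1 in males (Gjb1, without male replicate 1), and 4 to 7 well above background on all remaining arrays. The weaker flag for a positive and significant signal gave 7 in place of 4 on all 6 arrays. limma called 0 connexin probes under every alternative run, including the scan day as a block, with adjusted p from 0.584 to 1. With the replicate number as a block it called 0 connexin probes, and over all probes 1 in males and 2 in females. The methods name a further batch of pups for the repeat at 20 mg but do not say which replicate number it bears. The replicate 1 minus replicate 2 differences of the sexes correlated at r = 0.09 over 37211 probes. The slide as a random block could not be fitted, since no correlation could be estimated for any of 2000 probes tried. The 75th percentile shift moved the median female difference of all probes to 0.45. Among the single members, the male difference of Gjb1 ran from -1.85 to 3.09 with 1 array left out.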
